A study of Bos grunniens x Bos taurus and Bos grunniens with 6 samples.

Results

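The enzymes that add or remove methyl and acetyl groups on histones were followed through the testis transcriptomes of cattle-yak and yak. They were taken by gene symbol: the lysine methyltransferases of the KMT, SETD, SETDB, EHMT, SUV39H, EZH, NSD, DOT1L and SMYD groups, the arginine methyltransferases (PRMT), the acetyltransferases (KAT, EP300 and CREBBP), the lysine demethylases (KDM), the histone deacetylases (HDAC) and the sirtuins (SIRT). This gave 79 of the 18918 genes in the expression table, with 77 symbols, because KDM4D and KMT2D each stood on 2 gene IDs. The choice was by symbol alone.

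The study compared testes of 3 cattle-yak, the sterile F1 males of a Jersey cattle sire and a Gannan yak dam, with testes of 3 Gannan yak, all animals being 4 years old. The cattle-yak (C1, C2 and C3) came from Xiahe County and the yak (Y1, Y2 and Y3) from Linxia County and, per the study's methods, the way the testes were collected also followed the groups, so that genotype, place and collection cannot be told apart. Polyadenylated RNA of each animal was sequenced once, and fragments of both groups were mapped to the yak genome, with 11175100 to 11834987 fragments on genes in a cattle-yak and 12991641 to 13136129 in a yak. Values are fragments per length of gene model and per library depth (FPKM), which allow levels to be compared between genes per length.

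Histone lysine methylation has a meaning that depends on the residue: methyl groups on lysines 4, 36 and 79 of histone H3 mark active promoters and gene bodies, and those on lysines 9 and 27 of H3 and 20 of H4 mark silent or compact chromatin. Acetyl groups on lysines open chromatin and are removed by the zinc-dependent HDACs and by the NAD-dependent sirtuins. In the testis these marks are remade repeatedly: in spermatogonia as they leave the stem cell state, in meiotic prophase when the sex chromosomes are silenced and recombination sites are marked, and in elongating spermatids, where a wave of histone H4 acetylation precedes the exchange of histones for transition proteins and protamines.

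Marker genes of the testis cell types differed strongly between the groups. The genes fixed as markers of Sertoli cells, the somatic supporting cells of the tubule, were all called higher in cattle-yak (17 of 17 tested, summed level 3222 to 3503 against 678 to 741 FPKM), as were those of Leydig cells (8 of 8, 10468 to 12472 against 3352 to 4890 FPKM), peritubular myoid cells (7 of 7, 592 to 797 against 128 to 158 FPKM) and 9 of 10 of spermatogonia (379 to 446 against 94.2 to 110 FPKM). After scaling by the median of ratios, explained below, 14, 6, 5 and 8 of these were still called higher. Marker genes are counted by gene ID, and CLU, CYP17A1, CREM and OAZ3 each stood on more than 1 ID. The 17 Sertoli rows held 16 symbols, and NR5A1 was in both the Sertoli and the Leydig list. The Leydig sum was mostly INSL3, at 11173.5 ± 1043 against 3842 ± 808 FPKM. The markers of round spermatids were all lower (10 of 10, 17.3 to 75.7 against 1084 to 1142 FPKM), as were those of elongating spermatids (11 of 11, 72.9 to 210 against 11091 to 13473 FPKM), including TNP1 and PRM2. Spermatocyte markers were mixed, with 1 higher and 4 lower of 14 (377 to 646 against 1194 to 1259 FPKM), SYCP3 being the higher one. Of the endothelial genes 4 of 9 were higher and 1 lower (52.1 to 78.99 against 37.8 to 44.6 FPKM), and of the macrophage genes 4 of 7 were higher and 2 lower (120 to 168 against 109 to 141 FPKM). These marker differences lie between the same groups as every comparison below, and their part in those comparisons was not tested. In such bulk tissue, fewer cells of a type and less RNA per cell cannot be told apart.

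Of the 79 enzymes, 78 reached the minimum mean of 0.5 FPKM over the 6 animals and were tested among 15042 genes with limma on log2(FPKM + 1), a gene being called at a Benjamini-Hochberg adjusted p below 0.05 and a log2 fold change, cattle-yak over yak, beyond 1 in size. Log2 fold changes are given ± SE of the fit, and FPKM means, cattle-yak against yak, ± SD over 3 animals. In cattle-yak 28 enzymes were called higher (35.9%), where 33.4% of all genes tested were, and 8 were called lower (10.3%), where 20.8% of all genes were. The share of enzymes called higher was near that of all genes, and the share called lower was below it, a difference that was not tested. The median log2 fold change was 0.80 over the enzymes and 0.51 over all genes tested. The values of the 2 groups did not overlap for 69 of the 78 enzymes (88.5%), against 84.1% of all genes. By adjusted p alone 51 enzymes passed as higher and 17 as lower, where 52.6% and 29.2% of all genes did. SMYD1, a methyltransferase of heart and skeletal muscle, was the enzyme left untested, with a single fragment in C3, a single one in Y3 and none in the other animals.

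**Figure D1:**
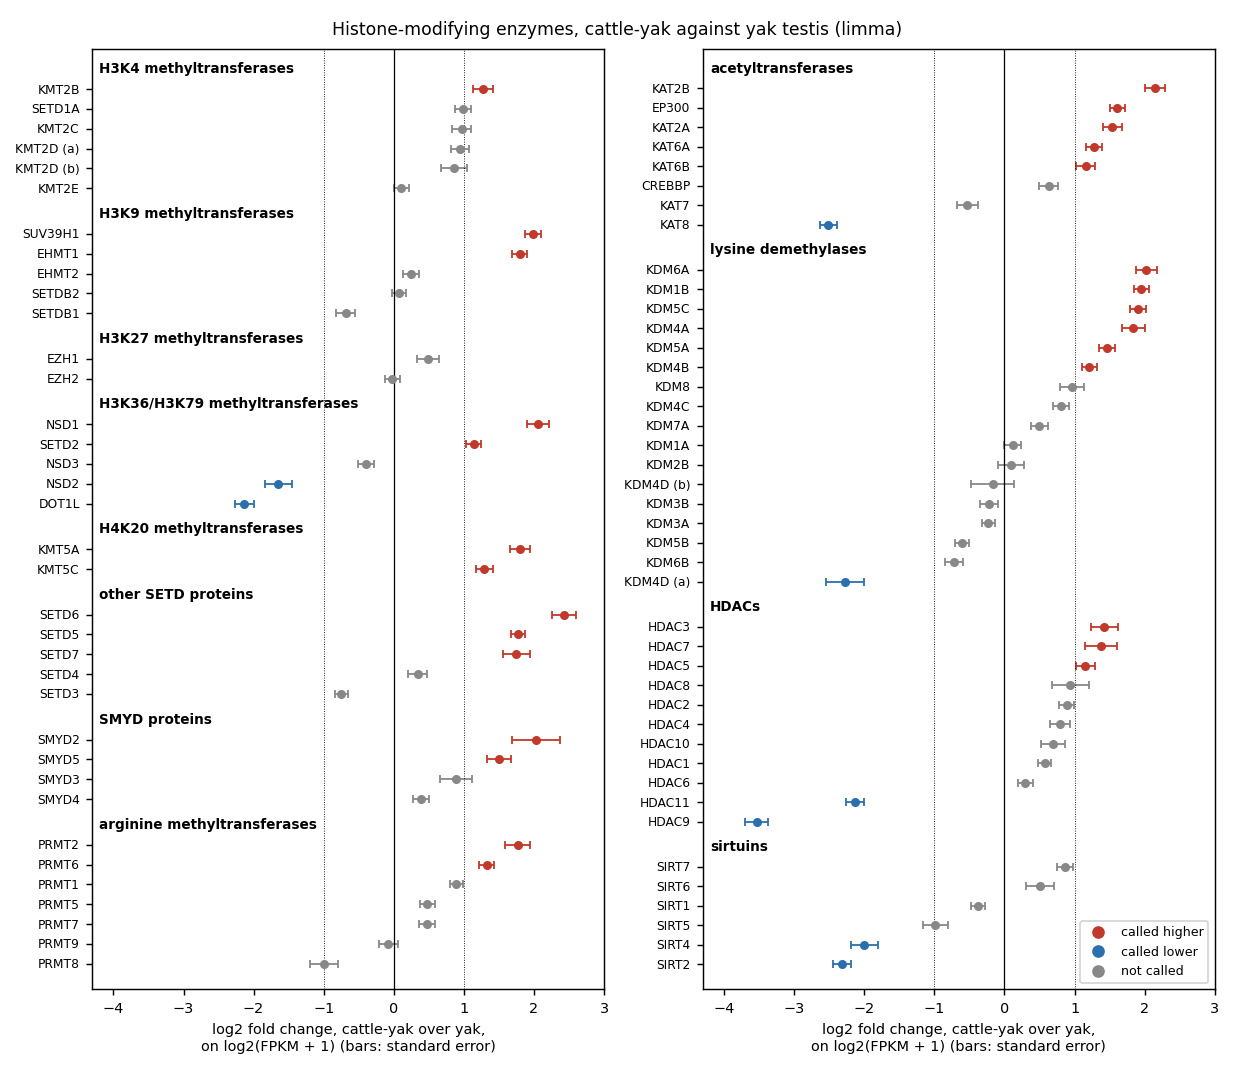
The log2 fold change, cattle-yak over yak, on log2(FPKM + 1) is given on the x axis for each of the 78 tested enzymes, grouped by family, with bars for the standard error, dotted lines at the threshold of 1 in size and colours for the call; for symbols on 2 gene IDs, (a) is the more abundant. The enzymes reach from HDAC9 at −3.54 to SETD6 at 2.42, with 28 called higher and 8 lower on the deposited scale, against 15 and 15 after median-of-ratios scaling and 0 and 50 after centring on Sertoli genes.

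These directions depend on how libraries that differ this much in cell type markers are put on a common scale. Scaling by the median of ratios, which brought the median log2 fold change of all genes to 0.01, left 15 enzymes called higher (17.7% of all genes) and 15 lower (27.7% of all genes), with a median of 0.27 over the enzymes. The 15 that stayed higher were EHMT1, SUV39H1, NSD1, KMT5A, SETD5, SETD6, SETD7, SMYD2, PRMT2, EP300, KAT2B, KDM1B, KDM4A, KDM5C and KDM6A. The 8 enzymes called lower as deposited stayed lower under each of the 18 alternatives tried, and under the median of ratios they were joined by SETDB1, SETD3, PRMT8, KAT7, KDM5B, KDM6B and SIRT5. The median of ratios and the centring on Sertoli genes lower the log2 fold change of every gene. Adjusted p alone only drops the fold threshold. A fall kept under these alternatives is therefore no check of that fall. When the libraries were centred on the 17 Sertoli genes, the median of all genes was −1.62, limma called 0 enzymes higher (0.259% of all genes) and 50 lower (70.7% of all genes), and 0 were higher at an unadjusted p below 0.05. On that scale SETD6 at 0.29 and KAT2B at 0.01 had the only positive log2 fold changes among the enzymes. Each rise given below is thus on the deposited scale, and relative to the Sertoli genes none of them was a rise past the test. The same call on fragment counts recovered from the FPKM values, with limma-voom, gave 36 enzymes higher (39.6% of all genes) and 10 lower (22.7% of all genes). The added calls were KMT2C, the longer KMT2D row, SETD1A, SMYD3, KDM8, HDAC4, HDAC8 and HDAC10 as higher and PRMT8 and SIRT5 as lower.

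**Figure D2:**
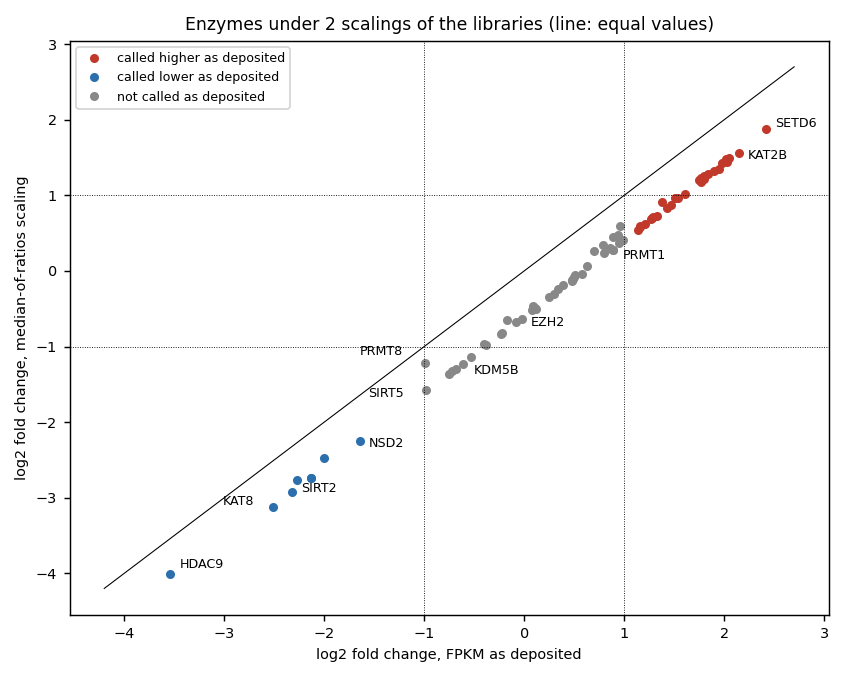
Each point is a tested enzyme, with its log2 fold change, cattle-yak over yak, on FPKM as deposited (x axis) and after median-of-ratios scaling (y axis); the solid line marks equal values and dotted lines the threshold of 1 in size. All points lie below the line, so that HDAC9, KAT8, SIRT2 and the other 5 lower enzymes moved further down, while 13 of the 28 enzymes called higher lost their call.

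The summed level of all 79 enzymes was nearly the same in the 2 groups, at 2720, 2722 and 2645 FPKM in C1, C2 and C3 and 2728, 2781 and 2663 FPKM in Y1, Y2 and Y3. The groups overlapped in this sum, with means of 2696 ± 44.2 and 2724 ± 59.3 FPKM (SD, n = 3 each). Beneath that total the families shifted. The writers at H3K36 and H3K79 summed to 138 ± 12.8 FPKM in cattle-yak and 269 ± 35.2 FPKM in yak, the acetyltransferases to 331 ± 16.0 and 518 ± 24.2 FPKM, and the sirtuins to 105 ± 0.94 and 219 ± 2.80 FPKM. In the other direction stood the arginine methyltransferases at 484 ± 6.23 against 285 ± 18.1 FPKM, the H3K4 writers at 128 ± 13.3 against 73.7 ± 4.43 FPKM, the SMYD proteins at 68.7 ± 1.67 against 26.2 ± 5.31 FPKM and the H4K20 writers at 36.7 ± 3.02 against 11.7 ± 0.75 FPKM. In each of these 7 families the 2 groups did not overlap. After median-of-ratios scaling the 3 falling sums stood further apart (the sirtuins at 84.0 ± 2.16 against 270 ± 3.86, the acetyltransferases at 265 ± 14.1 against 637 ± 43.2), the total was lower in cattle-yak at 2160 ± 54.9 against 3354 ± 132, and the H3K4 writers overlapped at 103 ± 9.44 against 90.6 ± 5.32. The arginine methyltransferases then stood at 388 ± 4.17 against 351 ± 29.7, with C3 and Y2 both at 384.5. The SMYD proteins (55.0 ± 0.84 against 32.3 ± 7.26) and the H4K20 writers (29.4 ± 1.96 against 14.4 ± 1.22) stayed higher without overlap. Set against the summed Sertoli genes of the same library, every family was lower in cattle-yak, down to the H4K20 writers at 1.10 ± 0.071% against 1.63 ± 0.19% of the Sertoli sum. That sum was itself 3222 to 3503 against 678 to 741 FPKM, a larger rise than that of any family, so the direction follows from the divisor. A family sum is led by its most abundant members, and no test was run on it. The lower acetyltransferase sum followed KAT8, at 57.0 ± 8.10 against 328 ± 14.8 FPKM. Of the 8 acetyltransferases, 6 had a positive log2 fold change as deposited, and 5 were called higher and 1 lower.

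**Figure D3:**
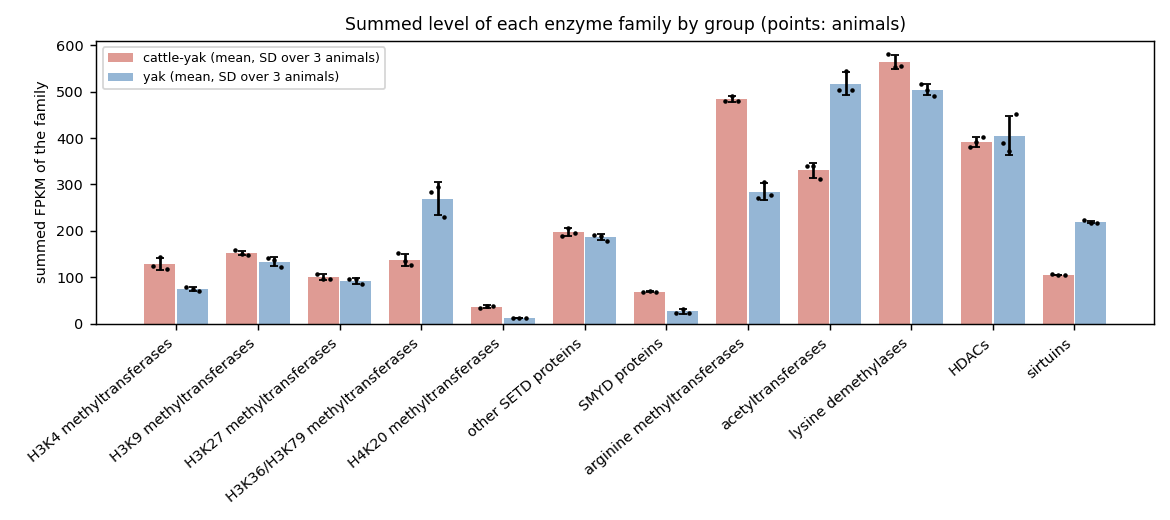
Summed FPKM (y axis) of the 12 enzyme families in cattle-yak and yak, with bars for the mean, error bars for the SD over 3 animals and a point for each animal. Sirtuins, acetyltransferases and H3K36/H3K79 writers sum to less in the 3 cattle-yak than in the 3 yak, the sirtuins to 105 against 219 FPKM. The acetyltransferase sum is led by KAT8, while 5 of the 8 acetyltransferases are called higher. The arginine methyltransferases sum to more, at 484 against 285 FPKM, and at 388 against 351 after median-of-ratios scaling, where C3 and Y2 are both at 384.5. Relative to the Sertoli genes, whose sum rose more than that of any family, they sum to less.

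Among the writers at H3K36 and H3K79, 2 of the 5 enzymes were called higher and 2 lower. DOT1L, which methylates H3K79 in the bodies of transcribed genes, was at 27.4, 21.8 and 20.9 FPKM in C1, C2 and C3 and 109, 117 and 90.9 FPKM in Y1, Y2 and Y3. Every cattle-yak lay far below every yak, a log2 fold change of −2.13 ± 0.14 (SE, adjusted p = 2.7e-06). NSD1 and NSD2 both place methyl groups on H3K36, and on the deposited scale they moved in opposite directions, NSD1 lying at −0.08 when centred on Sertoli genes. NSD2 was at 51.3, 37.9 and 32.8 FPKM in C1, C2 and C3 and 139, 146 and 101 FPKM in Y1, Y2 and Y3, all cattle-yak below all yak, and fell by 1.65 on the log2 scale (SE 0.19, adjusted p = 7.0e-05). NSD1 was at 24.4, 28.8 and 25.4 FPKM in C1, C2 and C3 and 5.81, 4.36 and 6.67 FPKM in Y1, Y2 and Y3, all cattle-yak above all yak, and its log2 fold change was 2.05 ± 0.16 (adjusted p = 6.4e-06). In a single library the ratio of NSD2 to NSD1 was 2.10, 1.32 and 1.29 in C1, C2 and C3 and 23.9, 33.4 and 15.2 in Y1, Y2 and Y3. Such a ratio does not depend on how libraries are scaled, and its mean change was 15.04-fold. The gene model of NSD2 covers 847 bases and that of NSD1 9179 bases, as recovered from the FPKM steps, so the NSD2 level is read from a short stretch. SETD2, which adds the third methyl group at H3K36, was at 39.2, 37.0 and 38.1 FPKM in C1, C2 and C3 and 18.2, 15.3 and 16.9 FPKM in Y1, Y2 and Y3, without overlap, and rose by 1.14 (adjusted p = 1.7e-05), a call that was lost under the median of ratios. NSD3 was not called, at 9.25 ± 0.29 against 12.5 ± 0.51 FPKM.

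The acetyltransferases held the most abundant of the 8 enzymes called lower. KAT8 (MOF), which acetylates lysine 16 of histone H4, was at 66.3, 51.5 and 53.2 FPKM in C1, C2 and C3 and 311, 334 and 339 FPKM in Y1, Y2 and Y3. In yak it was the most abundant acetyltransferase, and the cattle-yak level was 5.75-fold lower, a log2 fold change of −2.51 ± 0.11 (adjusted p = 5.1e-07). KAT7 (HBO1), the related MYST enzyme of H3K14 and H4, was also below yak in each cattle-yak but was not called, at 89.0 ± 11.7 against 129.5 ± 22.3 FPKM and a log2 fold change of −0.53 ± 0.15. KAT8 exceeded KAT7 in every yak, by 2.38, 2.21 and 3.18 times, and was below it in every cattle-yak, at 0.65, 0.65 and 0.63 of its level. The 5 acetyltransferases called higher were transcriptional coactivators and the KAT6 pair. KAT2B (PCAF) was at 47.4, 60.3 and 46.7 FPKM in C1, C2 and C3 and 10.6, 12.3 and 9.63 FPKM in Y1, Y2 and Y3, a log2 fold change of 2.15 ± 0.14 (adjusted p = 2.7e-06). EP300 (p300) was at 50.4, 59.5 and 52.7 FPKM in C1, C2 and C3 and 18.0, 16.0 and 17.0 FPKM in Y1, Y2 and Y3, with a log2 fold change of 1.61 ± 0.11 (adjusted p = 2.9e-06), and KAT2A (GCN5) was at 24.3, 31.1 and 25.9 FPKM in C1, C2 and C3 and 7.86, 8.49 and 9.59 FPKM in Y1, Y2 and Y3, with a log2 fold change of 1.54 ± 0.13 (adjusted p = 1.3e-05). None of these overlapped between the groups. KAT6A and KAT6B, at log2 fold changes of 1.28 ± 0.11 and 1.16 ± 0.13, were called higher as well, and their ratio to each other overlapped between the groups, at 1.28 to 1.46 over the cattle-yak and 1.18 to 1.41 over the yak. CREBBP (CBP), the close relative of p300, was not called at 12.1 ± 1.28 against 7.44 ± 0.85 FPKM, and EP300 stood at 4.27 to 4.82 times CREBBP in cattle-yak and 2.01 to 2.64 times in yak. Of the 5 calls, KAT2A, KAT6A and KAT6B were lost under the median of ratios.

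The zinc-dependent deacetylases were called in both directions, 3 higher and 2 lower of 11. HDAC9, a class IIa deacetylase, had the largest change of all the enzymes. It was at 1.62, 1.49 and 1.09 FPKM in C1, C2 and C3 and 31.6, 22.6 and 26.9 FPKM in Y1, Y2 and Y3, which rested on 97, 84 and 64 fragments in cattle-yak and 2095, 1494 and 1762 in yak. The cattle-yak mean was 19.3-fold lower, and the log2 fold change was −3.54 ± 0.17 (adjusted p = 5.7e-07). No other class IIa enzyme was called lower as deposited, while on the Sertoli-centred scale all were negative, HDAC4 at −1.34, HDAC5 at −0.98 and HDAC7 at −0.76. HDAC5 was at 20.7, 27.3 and 23.3 FPKM in C1, C2 and C3 and 9.79, 9.54 and 10.9 FPKM in Y1, Y2 and Y3 and HDAC7 at 5.27, 8.46 and 4.29 FPKM in C1, C2 and C3 and 1.66, 1.30 and 1.95 FPKM in Y1, Y2 and Y3, both without overlap, and they were called higher with log2 fold changes of 1.16 ± 0.13 and 1.38 ± 0.23 (adjusted p = 6.2e-05 and 6.2e-04), calls that the median of ratios removed. HDAC4 was not called, at 3.93 ± 0.31 against 1.86 ± 0.21 FPKM and a log2 fold change of 0.79 ± 0.14. In yak, HDAC9 was therefore the most abundant of the 4 class IIa transcripts in each animal, exceeding HDAC5 by 3.23, 2.37 and 2.48 times, while in cattle-yak it was the least abundant, at 0.078, 0.055 and 0.047 of HDAC5. HDAC11, the sole class IV member, was at 36.1, 41.7 and 44.8 FPKM in C1, C2 and C3 and 168, 167 and 213 FPKM in Y1, Y2 and Y3. It was the most abundant deacetylase in each yak, and fell by 2.13 on the log2 scale (SE 0.13, adjusted p = 1.9e-06).

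The class I deacetylases, of which HDAC1 and HDAC2 work in the Sin3, NuRD and CoREST corepressors, were at higher FPKM in each cattle-yak than in any yak, although HDAC1 turned negative under the median of ratios (−0.04) and all 4 did on the Sertoli-centred scale. HDAC3, the deacetylase of the NCoR complex, was at 42.4, 53.2 and 42.0 FPKM in C1, C2 and C3 and 14.6, 13.5 and 22.2 FPKM in Y1, Y2 and Y3 and was called higher (1.42 ± 0.19, adjusted p = 1.6e-04), though not under the median of ratios. HDAC1 at 92.1 to 104 against 65.6 to 67.6 FPKM and HDAC2 at 133 ± 10.5 against 71.7 ± 7.78 FPKM passed the adjusted p at log2 fold changes of 0.58 ± 0.09 and 0.89 ± 0.11, short of the fold threshold. HDAC8, at 5.30 ± 2.07 against 2.17 ± 0.43 FPKM, was not called (0.94 ± 0.27, adjusted p = 0.0106). Its level in C2, 2.94 FPKM, lay near the highest yak value of 2.66 FPKM, and without C2 it was called higher at 1.25. The class IIb enzymes HDAC6 and HDAC10 were not called, at 28.3 ± 2.44 against 22.8 ± 1.06 FPKM and 3.16 ± 0.34 against 1.59 ± 0.44 FPKM.

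None of the 6 sirtuins found was called higher. SIRT2, a mainly cytoplasmic deacetylase that also acts on H4K16, was at 25.9, 20.7 and 18.5 FPKM in C1, C2 and C3 and 112, 116 and 105 FPKM in Y1, Y2 and Y3, and the groups stood far apart, at a log2 fold change of −2.32 ± 0.13 (adjusted p = 1.3e-06). SIRT4, a mitochondrial member, was at 2.23, 1.51 and 1.82 FPKM in C1, C2 and C3 and 13.4, 8.61 and 9.5 FPKM in Y1, Y2 and Y3, on 25, 16 and 20 fragments in cattle-yak and 167, 107 and 117 in yak, a fall of 1.998 on the log2 scale (SE 0.19, adjusted p = 2.2e-05). SIRT2 was the most abundant sirtuin in each yak, and SIRT1, a nuclear deacetylase, was the most abundant in each cattle-yak. SIRT1 was not called, at 37.4 ± 2.54 against 48.9 ± 4.25 FPKM, and SIRT2 stood at 2.11 to 2.59 times SIRT1 in yak and 0.49 to 0.65 times in cattle-yak. SIRT5, another mitochondrial enzyme, lay just short of the fold threshold at −0.99 ± 0.17, with 15.6 ± 2.69 against 31.9 ± 6.12 FPKM, and was called lower when C2, C3, Y1 or Y2 was left out. SIRT6 and SIRT7, the other nuclear members, had log2 fold changes of 0.51 ± 0.19 and 0.87 ± 0.11 that were not called, SIRT6 turning negative under the median of ratios and both on the Sertoli-centred scale.

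**Figure D4:**
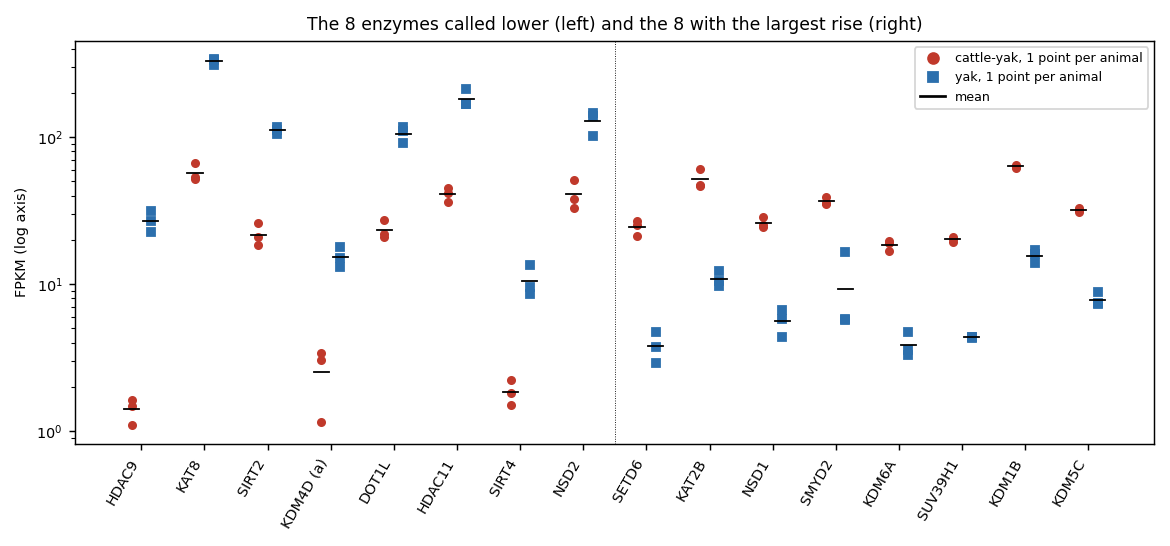
FPKM in each animal (log axis) of the 8 enzymes called lower in cattle-yak (left of the dotted line) and of the 8 with the largest rise (right), with a line at each group mean. No cattle-yak point overlaps a yak point in any of them, and SMYD2 in Y2, at 16.5 FPKM, lies apart from the other two yak. The 8 rises are on the deposited scale and are not called after centring on Sertoli genes.

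The lysine demethylases were the largest family, with 6 of 17 rows called higher and 1 lower. KDM6A (UTX), which removes methyl groups from H3K27, was at 16.9, 19.6 and 19.1 FPKM in C1, C2 and C3 and 3.55, 3.29 and 4.68 FPKM in Y1, Y2 and Y3 and rose by 2.02 on the log2 scale (SE 0.15, adjusted p = 5.2e-06). Its relative KDM6B was below yak in each cattle-yak, at 25.1 ± 3.56 against 41.9 ± 4.36 FPKM, but was not called (−0.72 ± 0.13). KDM6B exceeded KDM6A by 12.7, 13.3 and 7.88 times in Y1, Y2 and Y3 and by 1.43, 1.48 and 1.15 times in C1, C2 and C3. The KDM5 enzymes, which remove methyl groups from H3K4, showed the same kind of unequal change. KDM5B was the most abundant demethylase in both groups, at 136, 112 and 119 FPKM in C1, C2 and C3 and 183, 191 and 186 FPKM in Y1, Y2 and Y3, lower in each cattle-yak but short of the fold threshold (−0.61 ± 0.10, adjusted p = 4.9e-04). KDM5C was at 32.1, 32.9 and 30.9 FPKM in C1, C2 and C3 and 7.33, 7.43 and 8.76 FPKM in Y1, Y2 and Y3 and was called higher (1.90 ± 0.11, adjusted p = 1.7e-06), as was KDM5A at 34.4 ± 3.47 against 11.8 ± 0.46 FPKM (1.47 ± 0.11), the latter not under the median of ratios. KDM5B exceeded KDM5C by 21.2 to 25.8 times in yak and by 3.40 to 4.24 times in cattle-yak.

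Of the flavin-dependent demethylases, KDM1B (LSD2) was at 61.5, 64.8 and 62.9 FPKM in C1, C2 and C3 and 16.1, 13.8 and 17.0 FPKM in Y1, Y2 and Y3 and was called higher (1.95 ± 0.11, adjusted p = 1.1e-06), whereas KDM1A (LSD1) overlapped between the groups at 86.6 ± 10.5 against 79.6 ± 5.22 FPKM. KDM1A exceeded KDM1B by 4.34 to 6.06 times in yak and 1.16 to 1.56 times in cattle-yak. In the KDM4 group, which acts on H3K9 and H3K36, KDM4A at 20.7 ± 3.01 against 5.10 ± 0.9995 FPKM and KDM4B at 38.5 ± 0.66 against 16.1 ± 1.53 FPKM were called higher, the latter not under the median of ratios, and KDM4C at 14.2 ± 0.54 against 7.71 ± 0.52 FPKM was not called. KDM4D, a member known for its expression in testis, stood on 2 gene IDs with models of 978 and 1284 bases. The first (ENSBGRG00000011618) was at 3.02, 3.38 and 1.15 FPKM in C1, C2 and C3 and 14.9, 17.9 and 13.1 FPKM in Y1, Y2 and Y3, with C3 the lowest, and was the sole demethylase called lower (−2.27 ± 0.27, adjusted p = 8.3e-05). The second (ENSBGRG00000011701) overlapped between the groups, at 3.49 ± 1.33 against 4.17 ± 2.09 FPKM, and how fragments were shared between such near copies is not given in the sources used here. KDM3A, an H3K9 demethylase known to be needed for spermatid maturation in mice, was not called at 31.2 ± 2.02 against 36.8 ± 1.026 FPKM, and neither was KDM3B at 45.2 ± 3.70 against 53.1 ± 8.59 FPKM. KDM2B, KDM7A and KDM8 were not called either, with log2 fold changes of 0.09 ± 0.19, 0.50 ± 0.12 and 0.96 ± 0.17, and KDM8, at 2.57 ± 0.59 against 0.82 ± 0.079 FPKM, was called higher by limma-voom at 1.62 (adjusted p = 5.2e-04) and when C1 or C2 was left out.

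The writers of silencing methylation on H3K9 included 2 enzymes called higher of 5. SUV39H1, which trimethylates H3K9 in pericentric heterochromatin, was at 20.9, 19.3 and 20.3 FPKM in C1, C2 and C3 and 4.39, 4.32 and 4.36 FPKM in Y1, Y2 and Y3, with little spread in either group, and its log2 fold change was 1.98 ± 0.11 (adjusted p = 1.4e-06). EHMT1 (GLP) was at 34.2, 35.5 and 36.2 FPKM in C1, C2 and C3 and 9.29, 8.81 and 10.3 FPKM in Y1, Y2 and Y3 and its log2 fold change was 1.80 ± 0.11 (adjusted p = 1.6e-06). EHMT2 (G9a), its partner in the complex that dimethylates H3K9, was not called, at 26.8 ± 2.38 against 22.4 ± 2.12 FPKM. EHMT1 exceeded EHMT2 in each cattle-yak, by 1.21 to 1.46 times, and lay below it in each yak, at 0.38 to 0.51 of its level. SETDB1, which trimethylates H3K9 at transposons together with TRIM28, was the most abundant of the family at 53.2, 42.2 and 43.3 FPKM in C1, C2 and C3 and 81.6, 79.9 and 63.6 FPKM in Y1, Y2 and Y3, lower in each cattle-yak but not called (−0.69 ± 0.14, adjusted p = 1.6e-03). SETDB2 overlapped, at 23.7 ± 0.26 against 22.4 ± 1.85 FPKM. At H3K27, EZH2, the main catalytic subunit of Polycomb complex PRC2, overlapped at 81.7, 64.1 and 70.8 FPKM in C1, C2 and C3 and 75.6, 74.5 and 68.8 FPKM in Y1, Y2 and Y3, with a log2 fold change of −0.02 ± 0.11 whose sign changed under 4 of the alternatives. EZH2 was at −0.63, not called, under the median of ratios and at −2.15, called lower, on the Sertoli-centred scale. EZH1 was not called, at 27.7 ± 4.03 against 19.5 ± 3.20 FPKM. Both H4K20 writers found by symbol were called higher. KMT5A, which adds the first methyl group, was at 13.8, 17.2 and 18.4 FPKM in C1, C2 and C3 and 4.04, 3.96 and 3.94 FPKM in Y1, Y2 and Y3 (1.80 ± 0.14, adjusted p = 7.0e-06), and KMT5C, which adds the further ones, was at 19.4, 21.4 and 19.9 FPKM in C1, C2 and C3 and 6.95, 8.52 and 7.64 FPKM in Y1, Y2 and Y3 (1.29 ± 0.12, adjusted p = 1.9e-05). Neither overlapped, and KMT5C lost its call under the median of ratios.

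At H3K4, 1 of 6 rows was called higher and the others that did not overlap lay just under the fold threshold. KMT2B (MLL2), which methylates H3K4 at promoters, was at 27.1, 37.7 and 29.1 FPKM in C1, C2 and C3 and 12.6, 11.5 and 12.7 FPKM in Y1, Y2 and Y3 (1.27 ± 0.14, adjusted p = 5.1e-05), a call lost under the median of ratios. KMT2D stood on gene models of 7456 and 2307 bases, and whether these are parts of 1 gene is not known from the files. SETD1A, KMT2C and the 2 rows of KMT2D had log2 fold changes of 0.99 ± 0.11, 0.97 ± 0.14, 0.94 ± 0.12 and 0.85 ± 0.19 with values from 9.98 to 20.9 FPKM over the cattle-yak and from 5.16 to 10.3 FPKM over the yak. Leaving out C3 brought KMT2C, SETD1A and the longer KMT2D row over the threshold, leaving out Y1 did so for KMT2C, SETD1A and the shorter KMT2D row, and SETD1A also passed without C1 and without Y2. KMT2E, a SET protein that binds methylated H3K4, had the highest mean over all 6 animals and overlapped, at 33.2, 33.4 and 28.8 FPKM in C1, C2 and C3 and 30.8, 30.2 and 27.3 FPKM in Y1, Y2 and Y3. KMT2B exceeded it in C2 and C3.

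The remaining SET proteins act on histones in part or not at all. SETD6, which methylates the NF-kappaB subunit RelA, had the largest rise of the enzymes with all animals in the fit, and came after SMYD2 when Y2 was left out (2.29 against 2.49). It was at 21.1, 26.9 and 25.4 FPKM in C1, C2 and C3 and 4.70, 2.91 and 3.74 FPKM in Y1, Y2 and Y3, a 6.47-fold higher mean and a log2 fold change of 2.42 ± 0.17 (adjusted p = 4.2e-06). SETD5 was at 47.8, 54.8 and 53.0 FPKM in C1, C2 and C3 and 15.6, 13.5 and 14.4 FPKM in Y1, Y2 and Y3 (1.77 ± 0.11, adjusted p = 1.8e-06) and SETD7, a monomethyltransferase with many non-histone substrates, was at 15.3, 14.8 and 18.1 FPKM in C1, C2 and C3 and 5.59, 3.75 and 3.16 FPKM in Y1, Y2 and Y3 (1.75 ± 0.19, adjusted p = 4.5e-05). All 3 were without overlap and stayed called under the median of ratios. SETD3, the actin histidine methyltransferase, was the most abundant of the group at 90.5, 95.2 and 86.9 FPKM in C1, C2 and C3 and 154, 160.3 and 145 FPKM in Y1, Y2 and Y3, lower in each cattle-yak but not called (−0.75 ± 0.09, adjusted p = 7.3e-05), and SETD4 was not called at 13.9 ± 1.17 against 10.8 ± 1.48 FPKM. Among the SMYD proteins, SMYD2 was at 39.2, 35.7 and 35.1 FPKM in C1, C2 and C3 and 5.77, 16.5 and 5.68 FPKM in Y1, Y2 and Y3, where Y2 stood well above the other yak and all cattle-yak above Y2. Its log2 fold change was 2.03 ± 0.34 (adjusted p = 6.2e-04), the largest standard error among the called enzymes, and without Y2 it was 2.49. SMYD5 was at 11.5, 13.9 and 13.7 FPKM in C1, C2 and C3 and 3.79, 3.16 and 5.04 FPKM in Y1, Y2 and Y3 (1.51 ± 0.17, adjusted p = 6.0e-05), a call lost under the median of ratios. SMYD3 at 3.89 ± 1.26 against 1.60 ± 0.40 FPKM and SMYD4 at 15.02 ± 1.32 against 11.2 ± 0.095 FPKM were not called, and SMYD3 was called higher when C1 or Y1 was left out.

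Of the arginine methyltransferases with a PRMT symbol 2 of 7 were called higher. CARM1, an arginine methyltransferase without such a symbol, is counted with the other histone enzymes below and not in the family sum. It was called lower, at 60.6 ± 10.1 against 140 ± 10.7 FPKM (−1.20 ± 0.13, adjusted p = 4.7e-05), and is named after its value was seen. PRMT1, the main enzyme of asymmetric dimethylation, was the most abundant enzyme of all those followed in cattle-yak, at 247, 271 and 254 FPKM in C1, C2 and C3 and 127, 149 and 139 FPKM in Y1, Y2 and Y3. It passed the adjusted p (4.2e-05) at a log2 fold change of 0.89 ± 0.10, below the fold threshold. PRMT6, which methylates arginine 2 of H3, was at 60.6, 53.9 and 49.1 FPKM in C1, C2 and C3 and 20.6, 21.9 and 20.7 FPKM in Y1, Y2 and Y3 (1.33 ± 0.11, adjusted p = 8.6e-06) and PRMT2, a nuclear receptor coactivator, was at 11.6, 18.3 and 14.8 FPKM in C1, C2 and C3 and 4.22, 3.17 and 3.49 FPKM in Y1, Y2 and Y3 (1.77 ± 0.18, adjusted p = 3.5e-05). Neither overlapped, and PRMT6 lost its call under the median of ratios. PRMT5, the main enzyme of symmetric dimethylation, was at 106 ± 8.70 against 75.7 ± 6.35 FPKM and PRMT7 at 28.3 ± 0.60 against 20.2 ± 2.08 FPKM, and neither was called. PRMT9 overlapped at 22.8 ± 2.38 against 24.2 ± 2.97 FPKM. PRMT8, a relative of PRMT1 best known from brain, was at 0.17 ± 0.13 against 1.36 ± 0.53 FPKM and rested on 1, 7 and 4 fragments in cattle-yak and 52, 23 and 36 in yak. The cattle-yak mean was 8.04-fold lower, and on log2(FPKM + 1), which shrinks such low values, the log2 fold change was −0.996 ± 0.21, just short of the threshold. Limma-voom gave −3.10 and called it lower (adjusted p = 2.0e-03), and it was also called without C2 or without Y2.

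**Figure D5:**
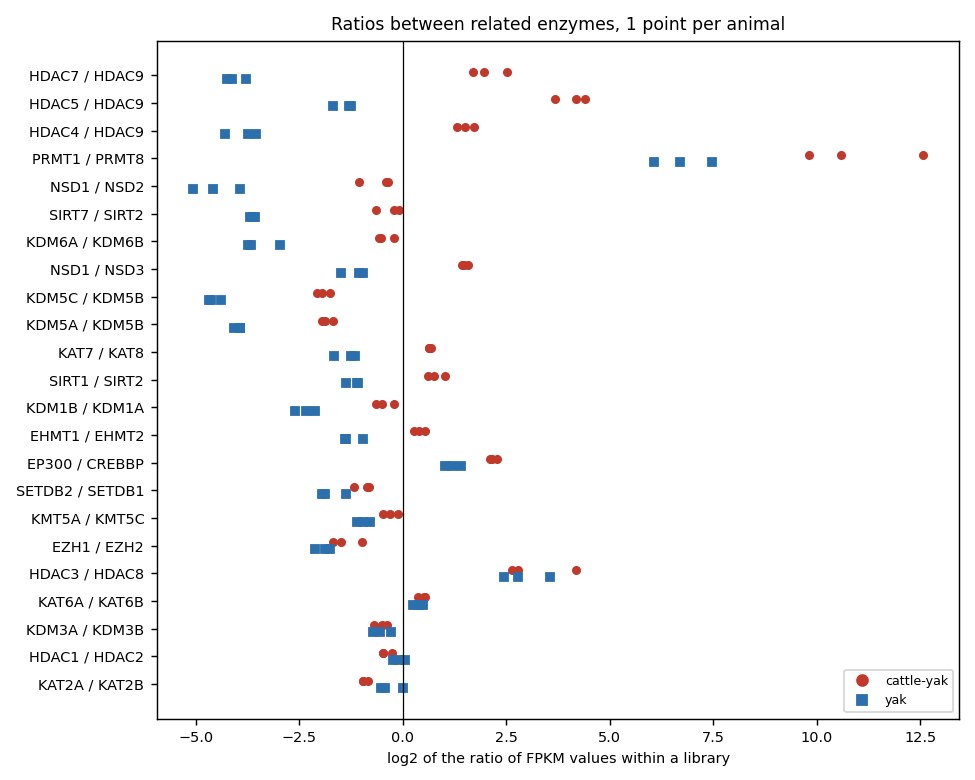
For 23 pairs of related enzymes, chosen after their values had been seen, the log2 ratio of FPKM within a library (x axis) is shown for each cattle-yak (circles) and yak (squares). Pairs with HDAC9, NSD2, SIRT2, KDM6B and the weakly expressed PRMT8 as the second member separate widely, NSD1 / NSD2 for example, whose inverse stood at 1.29 to 2.10 over the cattle-yak and 15.2 to 33.4 over the yak, while HDAC3 over HDAC8, KAT6A over KAT6B and KDM3A over KDM3B overlap.

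The ratios between related enzymes compare transcripts of a single library, so the scaling of the libraries does not enter them. With 3 animals a group an exact permutation test cannot give a two-sided p below 0.1, and none was run on them. In the KDM5, KDM6, NSD, EHMT, KDM1 and SIRT pairs described above, the partner that was more abundant in yak held a smaller share of the pair in cattle-yak. The pairs of EP300 with CREBBP and of KAT2B with KAT2A went the other way: the partner that was more abundant in yak stood further ahead in cattle-yak, KAT2B at 1.80 to 1.95 times KAT2A against 1.004 to 1.44 times in yak. PRMT1 also stood further ahead of PRMT8, at 898 to 6065 times in cattle-yak and 66.6 to 176.5 times in yak. This rested on 1, 7 and 4 fragments of PRMT8 in C1, C2 and C3. HDAC2 was at 1.20 to 1.40 times HDAC1 in cattle-yak and 0.96 to 1.18 times in yak.

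The proteins that build these enzymes into complexes, or that read their marks, were described from 7 lists. Of the tested COMPASS partners, the subunits shared by H3K4 methyltransferases, 4 of 13 were called higher and 0 lower, the largest being HCFC1 at 1.92. Among the 30 rows of Polycomb partners 10 were higher and 3 lower, the largest fall being that of PCGF5 at −1.27, and SUZ12, the core partner of EZH2, was higher at 80.5 ± 5.18 against 27.4 ± 2.20 FPKM (1.52), a call lost under the median of ratios (0.92). Acetyltransferase complex partners were higher in 14 and lower in 4 of 37 rows, with JADE3 at 2.02 and SGF29, a SAGA subunit that binds methylated H3K4, at 15.7 ± 1.19 against 229 ± 18.4 FPKM (−3.79). Deacetylase complex partners were higher in 10 and lower in 4 of 32 rows, from BRMS1L, a Sin3 subunit, at 2.56 to CHD5, a NuRD remodeller known from spermatids, at 1.06 ± 0.030 against 87.8 ± 4.45 FPKM (−5.42). BRMS1L lay above and SGF29 and CHD5 below each of the 78 enzymes.

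Histone enzymes with other symbols, among them kinases, deubiquitinases and further methyltransferases, were higher in 10 and lower in 9 of 49 rows, with USP22 at 2.29 and HASPIN, the kinase of threonine 3 of H3, at 13.8 ± 4.00 against 195 ± 11.2 FPKM (−3.76). Readers of acetylated lysine were higher in 2 and lower in 3 of 17 rows, BRWD3 at 2.13 and BRDT, the testis bromodomain protein, at 5.89 ± 1.87 against 41.4 ± 1.55 FPKM (−2.65). Readers of methylated lysine were higher in 13 and lower in 4 of 27 rows, with ATRX at 1.71 and again SGF29 as the largest fall. TRIM28, the partner of SETDB1, was lower at 135 ± 11.96 against 468 ± 28.1 FPKM (−1.79) and was chosen after its value was seen, as was SUZ12. The background shares of all genes, 33.4% higher and 20.8% lower, apply to each of these counts. Under the median of ratios the counts higher and lower were 3 and 4 for COMPASS, 3 and 9 for Polycomb, 4 and 10 for acetyltransferase and 3 and 6 for deacetylase partners, 4 and 14 for the other enzymes, 1 and 3 for acetyl readers and 3 and 5 for methyl readers, so that each list then held more rows called lower than higher.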

How the data were processed

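The deposited table gave FPKM per gene and animal, which the authors made from paired-end reads of stranded messenger RNA libraries mapped with HISAT2 to the yak genome (LU_Bosgru_v3.0) for both groups. The study names Cufflinks for FPKM and HTSeq-count for read counts, versions not being given in the sources used here. Which tool's fragments underlie the deposited values could not be settled. The effect of mapping hybrid reads to the yak genome alone was not tested, and whether counting used strand is not given in the sources used here. The authors' fold change and p-value columns were not used. Whole fragments and gene lengths were recovered from the steps of the FPKM values for 17973 genes. A step was accepted only if all values of a gene lay within 0.03 of a whole fragment, so this closeness is no check of the recovery. It gave 11175100 to 11834987 fragments on genes per cattle-yak and 12991641 to 13136129 per yak, so that 1 fragment in 1 kilobase was worth 0.0761 to 0.0895 FPKM. On simulated data 98.7% of 17654 genes were recovered.

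Genes with a mean of at least 0.5 FPKM over the 6 animals were tested (15042 of 18918) with limma 3.58.1 in R 4.3.3, with a mean-variance trend, on log2(FPKM + 1), two-sided, with Benjamini-Hochberg adjustment over all genes tested. On this scale the changes of weakly expressed genes come out too small. On simulated data with 200 genes changed 4-fold among 15042, 184 were called, with 6 unchanged genes. The simulation changed far fewer genes than were called in the data, in both directions and not among the weakest. It held no difference in library scale, so its rates do not carry over to the calls given here. There was 1 library per animal, so the p-values rest on the spread between 3 animals a group, which limma moderates with that of all genes tested. The 18 alternatives were other pseudocounts (0.1, 0.01), scaling by the median of ratios, TPM or quantiles, a filter at 5 FPKM or none, centring on 17 Sertoli genes, no trend, a robust prior, adjusted p alone, limma-voom on recovered fragments, and leaving out each of the 6 animals.

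The enzymes, gene lists and marker lists were chosen with earlier results of these data known, and the 23 pairs of related enzymes after their values were seen. In each of 12 families the values of every animal are given for the most abundant enzyme and for up to 3 called enzymes in each direction with the largest change, and from each other list the called gene with the largest change in each direction, except for a result that is not reported here. SD is over 3 animals, and SE is that of limma. No gene in the expression table carried the symbol KAT5, KDM2A, KMT2A, KMT5B, PRMT3, SETD1B, SIRT3 or SUV39H2. The families given here lack these enzymes. Sequences and gene positions were not used here.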

Additional observations from a re-analysis of the deposited data

How the results depend on the processing

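The counts of enzymes called (28 higher, 8 lower) and their median log2 fold change (0.80) stayed within 1.5 times of those values or within their spread with pseudocounts of 0.1 and 0.01, no filter, a minimum of 5 FPKM, TPM scaling, no trend, a robust prior and limma-voom. Leaving out each animal in turn gave 28 to 33 higher, 8 to 10 lower and a median of 0.735 to 0.826, and no call was lost by leaving out an animal. The median of ratios gave 15 higher and 15 lower (median 0.271), and quantile scaling a median of 0.620. By adjusted p alone 51 were higher and 17 lower. Centring on Sertoli genes gave 0 higher with limma (0 at an unadjusted p below 0.05 too, against 36 with limma-voom, which does not use this centring) and 50 lower, with the median turned to −1.336. On that scale KMT2B (−0.859), KMT2E (−2.024), EHMT1 (−0.334), SUV39H1 (−0.150), NSD1 (−0.079), SETD2 (−0.994), KMT5A (−0.328), KMT5C (−0.840), SETD5 (−0.360), SETD7 (−0.384), SMYD2 (−0.106), SMYD5 (−0.626), PRMT1 (−1.240), PRMT2 (−0.365), PRMT6 (−0.803), EP300 (−0.519), KAT2A (−0.593), KDM1B (−0.181), KDM5C (−0.229), KDM6A (−0.111), HDAC3 (−0.707), HDAC5 (−0.976) and HDAC7 (−0.756) turned negative, by construction of the scale. KMT2E, at 0.11 as deposited, was −0.492 under the median of ratios. EZH2, at −0.02, was 0.000 with TPM, 0.102 with quantile scaling, 0.061 without C2 and 0.006 without Y1, and the cause was not tested. It was −0.63 under the median of ratios and −2.15 when centred on Sertoli genes. Enzymes just under the fold threshold (KMT2C, KMT2D, SETD1A, SMYD3, PRMT8, KDM8, HDAC8 and SIRT5) gained a call when a single animal was left out. No paired analysis was made, because the 2 groups are separate animals and the labels give no pairing between them. PRMT8, at 1 to 52 fragments a library, was −0.996 on log2(FPKM + 1) and −3.10 with limma-voom.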

Other observations

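The genes among the enzymes and their 7 partner and reader lists that lie on the X chromosome in mammals (placed there from general knowledge, not from the files, and gathered after their values were seen) stood largely on one side. Of 18 such genes tested, 14 were called higher in cattle-yak, 0 lower and 4 were not called by limma, with a median log2 fold change of 1.73. The other 263 tested genes of the same lists had 77 higher and 34 lower, with a median of 0.38. Under the median of ratios the X-linked genes had 11 higher and 0 lower, and the others 25 higher and 65 lower. Because the genes were gathered with their values known, no test was run.

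The X-linked enzymes were SUV39H1, KDM5C and KDM6A, which were called higher, and HDAC6 and HDAC8, which were not. Among their partners, TBL1X, a subunit of the NCoR corepressor with HDAC3, was at 72.1, 79.2 and 76.4 FPKM in C1, C2 and C3 and 16.1, 14.8 and 17.1 FPKM in Y1, Y2 and Y3 (log2 fold change 2.18 ± 0.10 SE, adjusted p = 5.0e-07). RBBP7, a histone-binding subunit of PRC2 and NuRD, was at 216 ± 14.4 FPKM in cattle-yak and 53.2 ± 8.78 FPKM in yak (2.01 ± 0.13, adjusted p = 2.4e-06). HCFC1, a cofactor of H3K4 methyltransferases, was at 44.9, 50.2 and 47.0 FPKM against 10.4, 12.3 and 12.7 FPKM (1.92 ± 0.11, adjusted p = 1.7e-06). PHF8, a demethylase whose symbol lies outside the enzyme families, was at 58.0 ± 4.29 against 19.8 ± 1.65 FPKM (1.51 ± 0.11), a call lost under the median of ratios (0.91). The exceptions included UBE2A, the ubiquitin-conjugating enzyme of histone H2B, at 8.37 ± 2.76 against 8.25 ± 0.35 FPKM. UTY, the Y-linked relative of KDM6A, was higher too, at 10.5 ± 2.56 against 2.17 ± 0.29 FPKM (1.84 ± 0.18, adjusted p = 2.9e-05), and fragments shared between UTY and KDM6A could not be separated here. With a Jersey sire and a yak dam, the cattle-yak carry a cattle Y, a yak X and autosomes of both species. All were mapped to the yak genome, and the part of this in the UTY and X values was not tested.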
